A study of Mus musculus with 41 samples.

Results

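CNS2, also called HS V, is an enhancer downstream of the Il4 gene that was amplified in 3 pieces for bisulfite sequencing. The CpGs described here are those of the second and the third of its amplicons, which span chr11:53418901-53419406 on the minus strand of mouse genome mm9 (506 bp). They were taken by their position and number 13 of the 64 CpGs of the Il4 amplicons, CpG52 to CpG64 when counted along the direction of Il4 transcription. The proposed division was a core without methylation, CpG52 to CpG62 (11 CpGs), and a 3′ edge formed by the last 2 CpGs, CpG63 and CpG64. The data went against a part of that division: in naïve cells CpG63 was methylated at 32.5% to 33.0% of reads, CpG64 did not exceed 1.55%, and CpG62, inside the core, had the second highest mean. CpG63 and CpG64 are therefore described separately.

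Interleukin-4 is the signature cytokine of T helper 2 (Th2) cells, and its gene is regulated by several distal elements on either side, of which CNS2 is one, known for its role in IL-4 production by T follicular helper cells and its response to Notch signals. Cytosine methylation is lost from the locus as naïve CD4 T cells become Th2 cells. TET proteins oxidise 5-methylcytosine (5mC) to 5-hydroxymethylcytosine (5hmC) and on to 5-formyl- and 5-carboxylcytosine, which the glycosylase TDG can excise, while GATA3 is the transcription factor that directs the Th2 programme.

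The study asked how far TET proteins and TDG take part in this loss. It used mice on the C57BL/6 background. Naïve CD4 T cells of wild type (WT) mice, sorted from spleen and lymph nodes, were sequenced as 3 libraries. WT Th2 cells of a first cycle, also 3 libraries, had been stimulated for 2 days through CD3 and CD28 with IL-4 at 1000 U/ml and an antibody to IFN-γ, then expanded in IL-2 at 20 U/ml for 3 days according to the labels. A second cycle added 1 day of rest, 1 day of stimulation and 4 days in IL-2. Tet1, Tet2 and Tet3 in TET iTKO cells, and Tdg in TDG iKO cells, were deleted with tamoxifen. It activated a Cre-ERT2 driven by the ubiquitin C promoter, and a fluorescent Cre reporter was used to sort deleted cells. By qRT-PCR in first-cycle Th2 cells, the paper reports deletion short of complete for each gene, and lowest for Tet2. Each line had its own WT group, with 2 libraries per genotype in each cycle for TET and in the second cycle for TDG. In the first cycle TDG WT and TDG iKO cells had reads in CNS2 in 1 library per genotype. Th2 cells given a Gata3 sgRNA (sgGata3-1 or sgGata3-2) by retrovirus, or a mock control, were first-cycle cells from Cas9 mice with 1 library each. The labels give no age for the mice and do not say which libraries came from separate animals, so p-values measure the spread between these libraries. The data hold no expression values, so the deletion of Tet, Tdg or Gata3 could not be checked here.

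In bisulfite sequencing 5mC and 5hmC are read as C, while unmodified cytosine, 5-formyl- and 5-carboxylcytosine are read as T. A CpG's level is the share of its C and T calls that were C, in percent. In the 23 libraries with reads in the window, a CpG had between 35 and 17522 reads. Naïve replicate 2 was the shallowest naïve library, with 100 reads at CpG63 and 89 at CpG64, and the libraries of the Gata3 experiment were the deepest. TET iTKO replicate 1 had 37, 39 and 35 reads at CpG62, CpG63 and CpG64 in the first cycle and 63, 69 and 54 in the second. These CpGs fell below the minimum of 100 reads, so TET iTKO and WT cells were not tested there at that minimum. Intervals below are 95% Wilson intervals and cover counting error only, since the reads came from PCR without UMIs and can be copies of 1 molecule.

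According to the GENCODE annotation of mm9, the window lies in the Il4 gene on the minus strand only by virtue of Il4-004, a processed transcript without coding sequence. It falls in the intron between exon 3 (chr11:53423082-53423146) and the last exon (chr11:53416484-53416662). No exon or UTR overlaps it. The coding transcripts of Il4 end 6556 bp upstream of the window, and Kif3a, on the plus strand, ends 1155 bp from its other side. The window has a G and C content of 50.8% and a ratio of observed to expected CpGs of 0.404. Its 13 CpGs are more than the median of 4 in stretches of 506 bp along chromosome 11, of which 4.73% hold as many.

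The CpGs are unevenly placed. CpG52 to CpG61 lie from 3 to 61 bp apart, a gap of 92 bp separates CpG61 from CpG62, CpG62 and CpG63 are 17 bp apart, and CpG64 lies another 108 bp away. CpG59, CpG60 and CpG61 are read from both amplicons, which overlap by 43 bp between their primers. The first base after the forward primer of the third amplicon is the cytosine of CpG59. The sequence of the third amplicon is shown because it holds both the methylated CpG63 and its low neighbours, with CpGs in capitals, 5′ to 3′ on the minus strand, chr11:53418901-53419200. In order, its capitals are CpG59, CpG60, CpG61, CpG62, CpG63 and CpG64.
CpG59 to CpG64: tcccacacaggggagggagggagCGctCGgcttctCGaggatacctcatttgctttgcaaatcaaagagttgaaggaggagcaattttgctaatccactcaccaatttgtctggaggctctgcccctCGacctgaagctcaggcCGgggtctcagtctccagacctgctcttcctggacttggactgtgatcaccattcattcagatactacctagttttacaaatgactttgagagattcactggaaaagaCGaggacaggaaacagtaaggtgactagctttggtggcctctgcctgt

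In naïve cells CpG63 stood apart from all other CpGs of the window. Its level was 32.5% (interval 27.9 to 37.5) in replicate 1, 33.0% (24.6 to 42.7) in replicate 2 and 32.8% in replicate 3, a mean of 32.8% ± 0.247 (SD, n = 3). The replicates differed by less than their counting error. CpG64 measured 0.627%, 1.12% (89 reads) and 1.55%, a mean below CpG62 and CpG59 and above the other core CpGs. CpG62 measured 5.67%, 10.9% and 4.98%, a mean of 7.18%, and was the highest core CpG. CpG61, the lowest, was at 0% in replicates 1 and 2, where a count of 0 allows up to 0.448% and 1.33%, and at 0.131% in replicate 3. CpG59 was at 5.67%, 3.98% and 3.37%. The other core CpGs had means from 0.111% at CpG53 and CpG55 to 0.911% at CpG60. In naïve cells only CpG63, CpG62 and CpG59 thus exceeded 2% in any library, and the window did not divide into a low core and a methylated pair at its end.

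The mean of the core was low in every library but above the level of unconverted cytosine. The 100 cytosines of the window outside CpGs read as C in 0.137% to 0.204% of reads per library. Over 18 libraries of the 10 groups without Gata3 sgRNA the core mean was 0.877%, against 0.176% at those cytosines, and was higher in 18 of 18 (difference 0.701 points, two-sided paired permutation test with 100000 resamples, p = 2e-05, the smallest these resamples can give). This holds for the mean and not for each CpG: in naïve cells CpG53, CpG55, CpG56 and CpG61 had means of 0.111%, 0.111%, 0.142% and 0.0438%, below the 0.173% to 0.192% of those cytosines. CpG59 was the highest of CpG52 to CpG61 in 14 of the 23 libraries, and CpG63 was the highest of all 13 CpGs in 15 of 23.

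In WT Th2 cells of the first cycle most of the methylation at CpG63 had gone. The level was 0.816%, 2.21% and 6.56% in the 3 libraries, 29.6 points below naïve cells (adjusted p = 8.1e-06, quasi-binomial F-test). All Th2 libraries lay below all naïve libraries. CpG62 measured 0.12%, 1.37% and 2.75% and was 5.77 points lower than in naïve cells (adjusted p = 0.0167). Its call was lost without naïve replicate 2, which had the highest level and 101 reads (3.91 points, adjusted p = 0.0679), without Th2 replicate 1 (5.12 points, adjusted p = 0.0578) and with only both groups in the fit (adjusted p = 0.0576). These 2 were the CpGs called among the 12 tested in the window, whereas 58.9% of all Il4 CpGs tested were called. CpG59 measured 0.972%, 3.48% and 2.55%, which overlapped naïve replicate 3, and was not called (adjusted p = 0.285). CpG61 was at 0.539%, 0.1% and 0.0442%, and CpG58 at 0.0956%, 0% and 0.299% against 0.309%, 0% and 0.396% in naïve cells. CpG64 was at 0%, 0.115% and 0.597%, below naïve cells in each library, but the difference of 0.861 points was not called at a minimum of 20 reads (adjusted p = 0.327).

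The mean of the core was 1.32% ± 0.104 (n = 3) in naïve cells and 0.661% ± 0.128 (n = 3) in these Th2 cells. The groups did not overlap, but 3 libraries against 3 cannot give a p below 0.1 in an exact permutation test, and p = 0.1 was found. With the first-cycle WT libraries of the TET and TDG lines added, which differ in alleles and treatment, the mean of 6 libraries was 0.631% ± 0.132 (exact permutation p = 0.0238, the smallest possible with 3 against 6, and 0.18 after adjustment over the permutation tests). Most of this difference came from CpG62: over CpG53 to CpG61, without either end of the core, it was 0.176 points in place of 0.688 (exact permutation p = 0.119). CpG63 gave 32.8% against 3.79% ± 2.53 in the same 6 libraries (exact permutation p = 0.0238, n = 3 and 6, 0.18 after adjustment). Without naïve replicate 1, 2 or 3 the exact permutation p was 0.0714 for the core mean (0.652 to 0.748 points) and for CpG63 (28.9 to 29.1 points). The first-cycle WT libraries thus varied at CpG63 far more than the naïve ones, from 0.816% to 6.56%.

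In WT cells of the second cycle CpG63 was close to 0. Replicates 1 and 2 of TET WT cells had 0.709% and 0.22%, and those of TDG WT cells had 0.549% and 0%, where 439 reads allow up to 0.683%. Against naïve cells the difference was 32.4 points (adjusted p = 6.43e-08). CpG62 measured 0% and 0.22% in TET WT and 0.578% and 0% in TDG WT cells, 6.98 points below naïve cells (adjusted p = 0.000635). CpG59 measured 0.569%, 1.94%, 0.373% and 1.32%, below all naïve libraries and lower by 3.29 points (adjusted p = 0.0232). The call at CpG59 was lost without naïve replicate 1 (2.63 points, adjusted p = 0.0993), TET WT replicate 1 (3.13 points, adjusted p = 0.0582) or TDG WT replicate 1 (3.07 points, adjusted p = 0.0665). These 3 were the CpGs called of 12 tested, against 75% of all Il4 CpGs tested. Limma on log ratios also called CpG60, giving 4 of 12, against 78.6% of the Il4 CpGs. The remaining core CpGs moved by less than 1 point between naïve and second-cycle WT cells, from -0.317 points at CpG55 to 0.76 at CpG60 for naïve minus Th2. CpG64 showed 0% and 0% in TET WT and 1.89% and 0.545% in TDG WT cells.

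The step from the first to the second cycle was compared within the WT groups of both lines. With all libraries no CpG of the window could be tested (82.6% of the Il4 CpGs tested were called), because 1 TDG WT first-cycle library had no reads in CNS2. The window was therefore tested without it, an alternative chosen after seeing the data. CpG63 was 1.57% and 5.62% in TET WT and 5.97% in TDG WT cells of the first cycle, each above the 4 second-cycle values. The mean fell by 4.02 points, from 4.39% to 0.37% (adjusted p = 0.00632). This was the only CpG called of 13, against 68.3% of the Il4 CpGs tested in the same libraries; limma called 3 of 13, against 71.4% of the Il4 CpGs. The call at CpG63 was lost without TET WT replicate 2 of the first cycle (3.4 points lower, adjusted p = 0.109). CpG62 measured 0.813%, 1.37% and 2.02% in the first cycle and was not called (adjusted p = 0.155).

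TET iTKO cells had more methylation at CpG63 than their WT cells. In the first cycle the level was 10.3% (interval 4.06 to 23.6, 39 reads) in replicate 1 and 26.2% (23.1 to 29.6) in replicate 2, against 1.57% and 5.62% in TET WT cells. In the second cycle it was 20.3% (12.5 to 31.2, 69 reads) and 20.5% (17.0 to 24.4), against 0.709% and 0.22%. In both cycles each TET iTKO library lay above each TET WT library, and in the second cycle the intervals were far apart. In the first cycle the interval of TET iTKO replicate 1 overlapped those of both TET WT libraries (0.433 to 5.56 and 4.22 to 7.43). At a minimum of 20 reads, which admits the shallow libraries, the differences were 14.6 points (adjusted p = 0.000729) and 19.9 points (adjusted p = 3.18e-05). Without the shallow replicate 1 the differences were 22.6 points (adjusted p = 0.000587) and 20 points (adjusted p = 0.000163), with the lone TET iTKO library assumed to vary like the other groups. Both second-cycle TET iTKO libraries lay below all naïve libraries at CpG63, but the difference of -12.4 points was not called (adjusted p = 0.0921).

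The neighbours of CpG63 showed smaller values. CpG62 measured 0% (37 reads) and 4.74% in TET iTKO cells of the first cycle, and 4.76% (63 reads) and 5.35% in the second. At the minimum of 20 reads it was 1.28 points above WT in the first cycle and not called (adjusted p = 0.25). In the second cycle it was 4.94 points above WT (adjusted p = 0.0135). CpG64 measured 0% (35 reads) and 4.2% in TET iTKO cells of the first cycle, and 3.7% (54 reads) and 2.92% in the second. TET WT cells had 0% and 1.08% in the first cycle (a difference of 1.56 points, adjusted p = 0.189 at 20 reads). They had 0% in both libraries of the second (3.31 points, adjusted p = 0.0364 at 20 reads). The first-cycle difference was 3.66 points without TET iTKO replicate 1, which left 1 TET iTKO library. In the second cycle the call at CpG64 was lost without TET iTKO replicate 1 (2.92 points, on the same assumption for the lone library). Against naïve cells, CpG64 in second-cycle TET iTKO cells was not called at 20 reads (2.21 points, adjusted p = 0.395).

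Most core CpGs had a slightly higher mean in TET iTKO than in WT cells, but few differences were called. Of the 10 core CpGs tested at 100 reads, 10 had a higher mean than WT in the first cycle and 9 in the second, as had 93.3% of the Il4 CpGs tested in either cycle. The median difference of these 10 was 1.19 and 1.56 points, against 12.5 and 26.2 points over all Il4 CpGs tested. None was called in the first cycle by the quasi-binomial test, where 60% of all Il4 CpGs tested were called; 1 had an unadjusted p under 0.05, and limma on log ratios called 3 of 10, against 68.3% of the Il4 CpGs. In the second cycle CpG58 was called, 1 of 10 against 70% of all Il4 CpGs tested, and limma called 6 of 10, against 76.7%. CpG58 measured 0.662% and 5.35% in TET iTKO cells against 0.174% and 0% in WT cells (2.92 points, adjusted p = 0.0334). The call rested on replicate 2, without which the lone library left gave 0.575 points (adjusted p = 0.536), and it was also lost without either WT library (adjusted p = 0.0668 and 0.133) and with only both groups in the fit (adjusted p = 0.0742). In the first cycle CpG58 was at 0% and 1.71% in TET iTKO and 0% and 0.325% in WT cells. The bases around CpG58, chr11:53419189-53419229 on the minus strand, are shown with the CpG in capitals.
CpG58: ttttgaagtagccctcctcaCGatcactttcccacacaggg

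CpG52, at the 5′ end of the core, was the only core CpG at which both TET iTKO libraries exceeded 2% in each cycle. It was singled out after its values were seen. Its level was 2.14% and 3.3% in the first cycle and 3.95% and 3.29% in the second, against 0% and 0.279%, and 0.642% and 0.593%, in TET WT cells. The groups did not overlap in either cycle, and the quasi-binomial tests gave adjusted p = 0.057 and 0.0745. Limma called CpG52 in both cycles, among the 3 and 6 of 10 given above. CpG59 measured 1.99% and 5.14% in the first cycle and 1.78% and 5.3% in the second, against 0.826% and 2.54%, and 0.569% and 1.94%, in WT cells, so that the groups overlapped. CpG61 remained low, at 0.329% and 0.948%, then 0.391% and 0.458%, in TET iTKO cells, against 0% and 0.176%, then 0% and 0.244%, in WT cells.

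Over CpG53 to CpG61, which had enough reads in all libraries, the mean was 0.94% and 2.05% in TET iTKO against 0.458% and 0.54% in WT cells of the first cycle, and 0.72% and 2.71% against 0.291% and 0.355% in the second. Every TET iTKO library was higher than every WT library of its cycle, but 2 libraries against 2 cannot give a p below 0.333 in an exact permutation test. Replicate 2 alone passed 2%. The share of C outside CpGs was 0.18% and 0.164% in first-cycle and 0.18% and 0.169% in second-cycle TET iTKO cells, against 0.204% and 0.16%, and 0.199% and 0.137%, in WT cells. Against naïve cells none of the 10 CpGs tested was called in second-cycle TET iTKO cells, where 22.2% of Il4 CpGs tested were called; 1 had an unadjusted p under 0.05, and limma called 0, against 27.8%. With only both groups in the fit CpG52, CpG57 and CpG58 were called, 3 of 10 against 48.1% of Il4 CpGs, each higher in TET iTKO cells by 2.77, 2.03 and 2.77 points.

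No difference between TDG iKO cells and their WT cells was called in the window in the second cycle. CpG63 was 0% and 0% in TDG iKO cells, where 167 and 743 reads allow up to 1.8% and 0.404%, against 0.549% and 0% in WT cells. CpG62 was 0.625% and 0.404%, and CpG64 was 0% and 0.824%. CpG59 was 0.984% and 1.62%, CpG58 was 0% and 0.522%, and CpG61 was 0.218% and 0%, all overlapping with WT cells. TDG WT cells had 0.109% and 0.694% at CpG58, and 0.277% and 0% at CpG61. None of 13 CpGs was called (0% of all Il4 CpGs tested), none had an unadjusted p under 0.05, and limma called 0. Core means were 0.447% and 0.379% against 0.247% and 0.332% (difference 0.123 points, exact permutation p = 0.333 with n = 2 and 2, the smallest possible). Over CpG53 to CpG61 the difference was 0.0581 points and the groups overlapped, with 0.338% and 0.389% against 0.238% and 0.373% (exact permutation p = 0.667, n = 2 and 2).

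In the first cycle the single TDG iKO library had 9.73% at CpG63 (interval 5.52 to 16.6, 113 reads) and the single WT library 5.97% (3.45 to 10.1, 201 reads). The intervals overlapped. CpG62 was at 3.67% against 2.02%, CpG64 at 0.971% against 0.568%, and CpG59 at 0.377% against 2.57%. CpG58 was at 0% against 0.109%, and CpG61 at 0.373% against 0.0907%. None of the 13 CpGs was called in these libraries, as 0% of Il4 CpGs were, none had an unadjusted p under 0.05 and limma called 0. With 1 library against 1, each assumed to vary like the other groups, this does not show whether TDG deletion changed the window.

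The TET effect was set against the TDG effect in the second cycle. At CpG63 they were 19.9 and -0.275 points at a minimum of 20 reads, but the difference between them was not called (adjusted p = 0.159) in the test, which works on log odds and has both TDG iKO libraries at 0. None of the 10 core CpGs tested at 100 reads was called, against 63.3% of Il4 CpGs tested, and none had an unadjusted p under 0.05. Limma called 2 of 10, against 65% of the Il4 CpGs. With a replicate block and only the groups compared in the fit, CpG54 was called, 1 of 10 against 68.3%. With TDG iKO cells at 0, the test at CpG63 does not settle whether the effects differ there.

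In the Gata3 experiment the core was higher with either sgRNA than with mock, while CpG63 was 0.0531 points higher with sgGata3-1 and 1.24 points higher with sgGata3-2. The core mean was 0.521% with mock, 1.96% with sgGata3-1 and 1.42% with sgGata3-2. The 6 first-cycle WT libraries ranged from 0.449% to 0.763%, so mock lay within them and both sgRNA libraries above them. The share of C outside CpGs was 0.152%, 0.152% and 0.148%. All 11 core CpGs were higher than with mock for either sgRNA, with intervals apart at 11 for sgGata3-1 and 9 for sgGata3-2, where 90.6% and 92.2% of the 64 Il4 CpGs were higher with intervals apart. The median difference of the core CpGs was 0.971 and 0.968 points, against 8.8 and 8.41 points over the 64 Il4 CpGs. With 1 library each there was no test, and these intervals hold no spread between cultures. No CpG of the window differed by 10 points or more, whereas 45.3% of the 64 Il4 CpGs did for sgGata3-1 and 45.3% for sgGata3-2. Every CpG of the window except CpG63 had a mean of 7.18% or less in naïve cells. A rise of 10 points there would have passed the naïve level. The 10-point count and the medians therefore do not show whether the window responded less to the sgRNAs than the other Il4 CpGs.

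The largest differences within the window were at CpG52, with 0.781% (interval 0.634 to 0.961) for mock, 4.22% (3.89 to 4.57) for sgGata3-1 and 2.95% (2.69 to 3.23) for sgGata3-2, and at CpG59, with 1.65%, 4.64% and 3.73%. The bases around CpG52, chr11:53419350-53419390 on the minus strand, are shown with the CpG in capitals.
CpG52: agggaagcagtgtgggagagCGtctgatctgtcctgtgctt

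CpG58 measured 0.209%, 1.1% and 0.303%, and CpG61 0.103%, 0.613% and 0.458%. At CpG55 the sgRNAs differed from each other, with 1.57% for sgGata3-1, 0.371% for sgGata3-2 and 0.0968% for mock. CpG62 measured 1.27%, 2.24% and 1.27%. CpG63 was at 6.14% (5.64 to 6.67) with mock, 6.19% (5.72 to 6.69) with sgGata3-1 and 7.38% (6.89 to 7.9) with sgGata3-2. CpG64 was at 0.42%, 1.52% and 1.8%. The first-cycle WT libraries reached 6.56% at CpG63, so mock and sgGata3-1 lay within their range and sgGata3-2 just above it.

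The 5′ edge of CNS2, CpG48 to CpG51, served as a comparison. In naïve cells its CpGs measured 91.4% ± 1.69, 34.1% ± 4.39, 35.7% ± 3.09 and 10.5% ± 2.39 (SD, n = 3), so that CpG63 resembled CpG49 and CpG50 in level. In second-cycle TET WT cells CpG48 still had a mean of 53.6% and CpG49 one of 2.33%. The difference CpG48 minus CpG63 within a library was 58.6 points in naïve, 67.5 in first-cycle Th2 and 52.9 in second-cycle WT cells (exact permutation p = 0.1 with n = 3 and 3 and 0.0571 with n = 3 and 4 against naïve cells, the smallest possible). In these libraries CpG63 thus lost more points than CpG48 by the first cycle. By the second it lost fewer, and from 32.8% it could not have lost as many. With sgGata3-1 and sgGata3-2, CpG48 was 7.63 and 6.56 points above mock, CpG49 13.5 and 14.4, CpG50 7.76 and 6.39, and CpG51 3.28 and 1.76.

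Short letter patterns known from factors of T helper cells were searched on both strands of the window, as a description only. GATA, which reads TATC on the other strand, occurred 5 times; 90.9% of stretches of the same length on chromosome 11 hold it and 20.3% hold it as often. GTGGGAA, which reads TTCCCAC on the other strand and is known for RBPJ of the Notch pathway, occurred 1 time, 8 bp from CpG58, and is present in 9.44% of stretches. TTC followed after 4 bases by GAA, which reads the same on the other strand and is known for STAT6, occurred 1 time, 5 bp from CpG64, and is present in 13.5% of stretches. TGANTCA, the same on the other strand and known for AP-1, and TGTGGT, which reads ACCACA on the other strand and is known for RUNX, were not found in this window; 14.3% and 33.5% of stretches hold them. None of the patterns shared bases with a CpG.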

How the data were processed

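The authors mapped the bisulfite reads to mm9 with BSMAP and deposited counts per cytosine, namely its C reads and its informative reads (C plus T), not normalized. Levels were computed here from these counts on the minus strand. Amplicons were placed by matching the primers to the converted mm9 genome. Samples of TDG first-cycle cells under 1 library name were added as runs. CpGs were compared by quasi-binomial regression over 22 libraries of 10 groups and all Il4 CpGs, with weights for a variance between libraries, dispersion moderated with limma 3.58.1 (R 4.3.3) and never below 1, a two-sided F-test and Benjamini-Hochberg adjustment; each library compared needed 100 reads, and an adjusted p under 0.05 was called. Single values were compared by exact permutation tests (SciPy 1.17.1). Values in every library are given for CpG63, CpG64, the highest and lowest core CpG in naïve cells and each core CpG called. The members and lists were chosen with earlier results of these data known.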

Additional observations from a re-analysis of the deposited data

Results flagged for a closer look

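In the 6 WT first-cycle libraries, 3 CpGs had 1 library far from the others. TET WT replicate 1 measured 1.32% at CpG53, where the next highest library had 0.49%, and 1.28% at CpG57, where the next had 0.433%. Th2 replicate 1 measured 0.539% at CpG61, against 0.176% in the next. The rule would pick out about 1 in 20 of the 28 values checked by chance if levels were normally distributed. Levels near 0 from libraries of unequal depth need not be, so the rate may not hold here. At each of these CpGs the interval of the flagged library overlapped that of the next, as with 0.641 to 2.70 against 0.225 to 1.07 at CpG53. All of these levels are within the low range of the core.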

How the results depend on the processing

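The quasi-binomial calls at CpG63 for naïve against first- and second-cycle WT cells kept their direction and their call under every alternative that gave a test. With 1 library left out at a time, CpG63 in naïve minus all first-cycle WT cells ranged from 28.4 to 29.5 points, and the core mean from 0.652 to 0.748; in both, the exact permutation p of 0.0238 became 0.0714 without any 1 of the naïve libraries, the smallest possible with 2 against 6. With 1 library left out, 1 to 2 window CpGs were called for naïve against first-cycle Th2 cells. For WT second against first cycle 0 to 1 were called. For TET iTKO against WT cells such fits left 1 library in a group. Without TET iTKO replicate 1 they also tested CpG62 to CpG64. With none left out of these fits the counts were 2 of 12 (58.9% of all Il4 CpGs tested), 1 of 13 (68.3%), 0 of 10 (60%) and 1 of 10 (70%). CpG64 in second minus first cycle was 0.0585 points and ranged from -0.368 to 0.324 with 1 library left out. It reversed to -1.08 at 500 reads, which only TET WT replicate 2 of each cycle reached there (0% in the second and 1.08% in the first cycle). The call at CpG64 in second-cycle TET iTKO cells was lost without replicate 1 (2.92 points).

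The edge is the mean of CpG63 and CpG64 here, and edge minus core at 100 reads was 11.2 and 8.8 points for TET iTKO minus WT cells in the first and the second cycle, -6.9 for second-cycle TET iTKO minus naïve cells and 14.1 for naïve minus all first-cycle WT cells. At a minimum of 20 reads 1 of 13 window CpGs was called for TET iTKO in the first cycle (57.8% of Il4 CpGs) and 4 of 13 in the second (71.9%). TET iTKO minus WT cells then gave 1.17 and 1.86 points for the core, 14.6 and 1.56 for CpG63 and CpG64 in the first cycle, and 6.93 and 9.76 for edge minus core. TET iTKO minus naïve cells gave 0.872 for the core and -5.96 for edge minus core, and naïve minus all first-cycle WT cells 0.705 for CpG64 and 14.2 for edge minus core. At 500 reads, which CpG63 did not reach in every library, 0 of 9 were called for WT second against first cycle (57.5%) and 0 of 4 for TET iTKO in the second cycle (68.3%), and the core in naïve minus second-cycle cells was 0.836. Over CpG53 to CpG61 the core gave 0.176 for naïve minus all first-cycle WT cells, 0.405 in place of 1.01 for naïve minus second-cycle WT cells, 0.0581 in place of 0.123 for TDG iKO minus WT cells in the second cycle, 0.996 and 1.39 for TET iTKO minus WT cells, 0.995 for TET iTKO minus naïve cells, and 9.08 for edge minus core in the second cycle. Weighting by reads gave 2.58 and 9.68 for core and edge minus core there. Limma called 3 CpGs for second against first cycle, 3 and 6 for TET iTKO, and 2 for the TET effect minus the TDG effect. With runs kept separate CpG52 was called for TET iTKO in the first cycle, 1 of 10 (66.7%). With only the groups compared the counts were 1 of 12 for naïve against first cycle (48.2%), 0 of 10 for TET iTKO in the second cycle (66.7%) and 3 of 10 for TET iTKO against naïve cells (48.1%).

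The libraries share replicate numbers, but same-numbered naïve and Th2 libraries did not deviate together (correlations 0.0592, -0.0938 and -0.02). The single correlations of the other pairs were 0.347 for TDG iKO and WT cells in the second cycle, 0.191 for TET WT cells of both cycles, and -0.261 and -0.0342 for TET iTKO and WT cells in the first and the second cycle. The replicate block was added to fits of only the groups compared. There CpG63 was called for naïve against first cycle, 1 of 12 (48.2%), as without the block. CpG54 was called for the TET effect minus the TDG effect, 1 of 10 (68.3%), against 0 of 10 (63.3%) without the block. Shallow reads at CpG62 to CpG64 limit the TET iTKO comparisons, several alternatives left groups of 1 library there and gave no permutation test, and with all libraries the window had no value for the TDG first cycle. PCR copies and groups of 1 to 3 libraries limit every comparison.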
